A study of Mus musculus with 2 samples.

Results

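The 251 short piRNA clusters are those of at most 17.9 kb in a merged list of piRNA clusters of the mouse genome (mm10). They span 123 to 17793 bp, with a median of 8343 bp. Of the other clusters in the list, 256 are longer and reach from 17968 bp upward, and 5 short ones, cluster28, cluster80, cluster106, cluster444 and cluster485, were left out. Small RNAs were sequenced from leptotene and zygotene (LZ) spermatocytes of wild-type C57BL/6J mice, sorted from testes at postnatal day 11 (P11) and postnatal day 16 (P16). Each age is represented by 1 library from 3 individuals, so differences between ages lack a replicate check and no p-value is given. Intervals of shares, levels and single ratios cover counting error only, and those of a median describe the spread over clusters. The libraries hold small RNAs and no mRNAs, so the stage of the sorted cells could not be checked against marker genes, and in such bulk samples fewer cells of a type and less RNA per cell cannot be told apart. RPKM is the number of uniquely mapped reads divided by the length of the cluster and by the library's total of mapped reads, scaled by the authors. The steps of 1 read in the RPKM values corresponded to 2258281 mapped reads at P11 and 4043064 at P16, and 3 reads in a cluster of the median short length equalled 0.159 RPKM in the younger library and 0.0889 RPKM in the older one.

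A piRNA cluster is a stretch of genome that is transcribed into long single-stranded precursors, which are cut into piRNAs and loaded onto PIWI-like proteins. Some precursors are mRNAs whose 3′ untranslated regions give piRNAs, and others are long noncoding RNAs (lncRNAs) made in male germ cells. A-MYB is the transcription factor known to drive many precursors of the pachytene stage of meiosis, the stage that follows zygotene. The study sorted the clusters by their piRNA levels over germ cell development and describes 3 main categories, named late (levels climb through meiosis), early (highest in spermatogonia and LZ cells) and PSG (highest in fetal prospermatogonia). Its list of clusters labels the rest as low expression, which is treated here as the fourth group. The paper describes that grouping on germ cell stages whose LZ cells came from mice older than P16. It does not state outright whether P11 and P16 values also entered, so the groups are used here to describe the levels. The short clusters comprise 61 late, 48 early, 92 PSG and 50 low expression clusters.

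Among late short clusters, a set lay directly behind the start of an annotated lncRNA. In 9 of the 61, the cluster's nearest edge lay 16 to 164 bases downstream of a RefSeq lncRNA start on the lncRNA's strand. In 5 others a lncRNA start lay inside the cluster. The clusters carry no strand in these data, so whether their transcription runs with the lncRNA was not tested. The following stretches surround the starts that belong to some of the steepest or highest late short clusters. Those at cluster7, cluster308 and cluster365 reach into the cluster, those at cluster220, cluster325 and cluster264 end before its nearest edge, and the one at cluster185 lies inside its cluster. Each runs 5′ to 3′ on the strand of the lncRNA, from 250 bases before its start to 50 bases after it, in RefSeq's GRCm38.p6 annotation. Capitals mark the letters AACNG, a core of the motif bound by MYB-family factors, on either strand, and overlapping matches run together.
1700020N18Rik at cluster7, chr1:91405980-91406279, minus strand: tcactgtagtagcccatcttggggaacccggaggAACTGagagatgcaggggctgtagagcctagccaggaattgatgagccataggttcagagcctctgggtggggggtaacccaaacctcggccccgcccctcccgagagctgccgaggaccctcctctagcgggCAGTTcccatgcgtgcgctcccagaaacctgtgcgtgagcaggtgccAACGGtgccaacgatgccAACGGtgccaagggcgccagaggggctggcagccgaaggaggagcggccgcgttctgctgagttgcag
1700042G15Rik at cluster308, chr4:57364243-57364542, minus strand: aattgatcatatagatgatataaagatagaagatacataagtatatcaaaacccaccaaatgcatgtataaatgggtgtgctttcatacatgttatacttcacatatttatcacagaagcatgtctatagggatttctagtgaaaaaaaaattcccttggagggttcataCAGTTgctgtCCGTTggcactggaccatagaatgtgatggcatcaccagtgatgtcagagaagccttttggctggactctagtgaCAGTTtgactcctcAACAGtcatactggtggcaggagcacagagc
1700008K24Rik at cluster220, chr17:49113484-49113783, minus strand: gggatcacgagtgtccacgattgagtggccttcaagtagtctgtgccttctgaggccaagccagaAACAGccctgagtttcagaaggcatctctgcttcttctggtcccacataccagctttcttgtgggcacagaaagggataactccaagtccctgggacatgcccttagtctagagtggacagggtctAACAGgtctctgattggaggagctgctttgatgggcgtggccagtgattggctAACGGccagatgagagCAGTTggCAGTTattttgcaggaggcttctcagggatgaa
1700029M20Rik at cluster325, chr4:135626405-135626704, plus strand: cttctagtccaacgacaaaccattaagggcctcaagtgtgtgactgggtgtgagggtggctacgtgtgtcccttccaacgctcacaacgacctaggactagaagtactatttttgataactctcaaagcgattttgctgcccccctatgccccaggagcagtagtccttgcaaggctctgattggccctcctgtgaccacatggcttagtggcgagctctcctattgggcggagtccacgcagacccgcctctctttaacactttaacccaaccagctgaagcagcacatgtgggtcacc
D130017N08Rik at cluster365, chr5:143758104-143758403, plus strand: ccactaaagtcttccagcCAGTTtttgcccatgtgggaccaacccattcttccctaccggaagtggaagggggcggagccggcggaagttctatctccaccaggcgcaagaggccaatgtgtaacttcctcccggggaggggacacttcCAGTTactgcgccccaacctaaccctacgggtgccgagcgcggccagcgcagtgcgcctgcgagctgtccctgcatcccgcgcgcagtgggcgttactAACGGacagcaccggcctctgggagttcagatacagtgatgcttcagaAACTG
Gm14244 at cluster264, chr2:127691604-127691903, plus strand: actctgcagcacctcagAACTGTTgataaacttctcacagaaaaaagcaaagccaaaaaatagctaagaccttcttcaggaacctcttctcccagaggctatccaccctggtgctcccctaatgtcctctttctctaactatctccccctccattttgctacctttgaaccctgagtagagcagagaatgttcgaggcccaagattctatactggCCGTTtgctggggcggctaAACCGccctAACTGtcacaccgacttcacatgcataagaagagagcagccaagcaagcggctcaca
1700001L05Rik at cluster185, chr15:83367248-83367547, minus strand: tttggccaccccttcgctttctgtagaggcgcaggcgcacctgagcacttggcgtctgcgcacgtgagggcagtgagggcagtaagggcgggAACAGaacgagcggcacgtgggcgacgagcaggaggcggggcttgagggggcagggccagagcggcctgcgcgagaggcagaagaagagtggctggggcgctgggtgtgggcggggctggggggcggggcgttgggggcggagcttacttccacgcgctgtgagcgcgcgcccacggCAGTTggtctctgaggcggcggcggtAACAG

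Of the 14 lncRNA starts at or inside late short clusters, 12 had the motif AACNG in this window, with a median of 3.5 matches and a range of 0 to 6. Of 32851 RefSeq promoters of the same length, 80.3% had it, with a median of 2 matches, so that its presence sets none of these starts apart. The stretch of 1700029M20Rik held no match. A match of these letters is a description and not a binding site.

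Among short clusters off chromosome 18, none of 47 early, 92 PSG and 49 low expression clusters lay directly behind a lncRNA start, whereas 4 early and 2 PSG clusters lay directly behind the start of a protein-coding gene. A lncRNA start inside the cluster was not particular to late clusters, and was found in 1 early, 8 PSG and 2 low expression clusters. The window of 200 bases around cluster edges was chosen after the positions had been seen, and the difference between the groups was not tested.

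The clusters behind these starts were all higher at P16, and their P11 levels ranged from no read to 47.4 RPKM. Cluster308 (chromosome 4, 57357133 to 57364274), which begins 18 bases behind the 1700042G15Rik start, had 0.19 RPKM at P11, from 3 reads, and 234.0 RPKM at P16, from 6757 reads. Cluster7 (chromosome 1, 91403084 to 91405992), which begins 37 bases behind 1700020N18Rik, had 0.61 RPKM (4 reads) and 473 RPKM (5568 reads). Cluster264 (chromosome 2, 127691911 to 127703552), behind Gm14244 by 57 bases, had 0.08 RPKM (2 reads) and 99.96 RPKM (4705 reads). Each had at most 4 reads in the P11 library, and its ratio rests on them. For cluster308 the ratio was 1232 (95% exact interval 430.3 to 6102), and for cluster7 it was 776 (303.5 to 2855). Cluster220 (chromosome 17, 49112292 to 49113419), only 1128 bp long and 114 bases behind 1700008K24Rik, had 9.03 RPKM (23 reads) and 850 RPKM (3877 reads), the highest P16 level of all late short clusters. Cluster325 (chromosome 4, 135626719 to 135630117), 64 bases behind 1700029M20Rik, had 47.4 RPKM (364 reads) and 838 RPKM (11512 reads), and cluster365 behind D130017N08Rik had 5.32 RPKM (177 reads) and 138 RPKM (8208 reads). These 3 had measurable P11 signal, and their ratios were 94.1 (62.7 to 149), 17.7 (15.9 to 19.7) and 25.9 (22.3 to 30.2). Cluster185 (chromosome 15, 83353725 to 83369944), which holds the start of 1700001L05Rik inside it, differed from them. It was already the highest late short cluster at P11, with 142 RPKM (5210 reads), and its P16 level of 357 RPKM (23443 reads) was 2.51 times higher (2.44 to 2.59).

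Over all 61 late short clusters, the P11 median was 1.29 RPKM (quartiles 0.17 and 9.84) and the P16 median 50.6 RPKM (quartiles 17.5 and 99.96). Levels were compared as the log2 ratio of RPKM + 0.1, which makes changes of low clusters look smaller than they are. The median log2 ratio was 4.67 (95% binomial interval over the clusters 3.68 to 5.50). Every one of the 61 had a higher P16 level, by 2-fold or more in 50, against 20.7% of all clusters in the list. RPKM is relative to each library's mapped reads, and the share of these not counted in any cluster fell from 81.0% at P11 to 33.99% at P16. This remainder is called reads outside clusters here. Clusters count unique reads only, so the remainder may include reads that map both to a cluster and elsewhere. Relative to the reads outside clusters, a second scale that moves the median log2 ratio of all clusters from -0.52 to 0.11, each of the 61 was at least 2-fold higher, against 28.5% of all clusters, and their median was 5.92. With the 11 clusters that had no read at P11 set at the bound that 3 reads allow, the median was 4.41. The groups were formed on stage expression that includes LZ cells, so the direction of this group is a description. Late short clusters rose from 0.747% to 4.62% of mapped reads. Late long clusters rose from 0.569% to 54.8%.

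**Figure D1:**
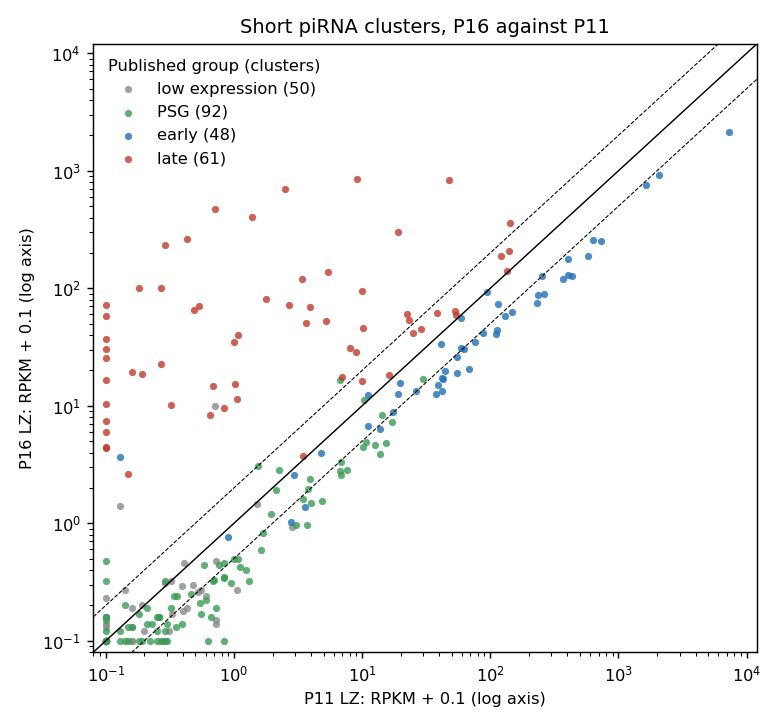
P16 against P11 level of each of the 251 short clusters, in RPKM + 0.1 on log axes, coloured by published group, with the number of clusters in the legend; the solid line marks equal levels and the dashed lines a 2-fold difference. The 61 late clusters lie above the line of equal levels and most early clusters lie below it.

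The short members thus held a changing part of the late signal. At P11, 56.8% (95% Wilson interval 56.2% to 57.3%) of the reads in late clusters of both length classes came from short ones, which cover 16.5% of the late cluster length. At P16 the short ones gave 7.79% (7.75% to 7.82%). In early clusters the short share was nearly level, 60.2% at P11 and 57.6% at P16, on 9.87% of the length. That share rests in large part on cluster218 and cluster263, which hold rRNA or tRNA genes. These 2 gave 97273 of the 215173 early short reads at P11 and 54576 of 135835 at P16. PSG clusters had 16.3% and 22.2% of their reads in short members. This comparison was chosen after the values had been seen, and the difference in change between short and long clusters was not tested.

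**Figure D2:**
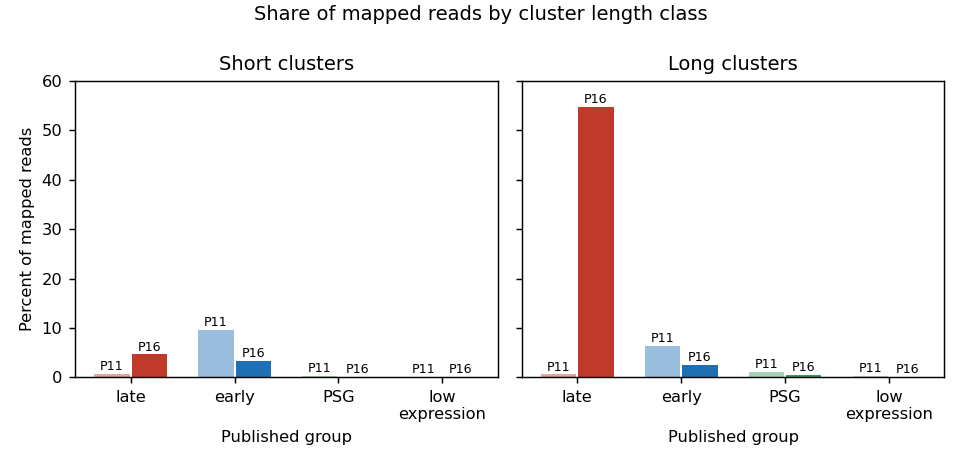
Percent of mapped reads in each library that fell in short clusters (left) and long clusters (right) of each published group; pale bars are P11 LZ and full bars P16 LZ, 1 library each. Long late clusters reach 54.8% at P16, whereas short late clusters reach 4.62%.

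The late short clusters were not alike, and their annotated exons divide them. This division was also made after the values had been seen and has no test. A total of 17 overlapped an exon of a protein-coding gene in GENCODE M21, 21 overlapped exons of lncRNAs only, and 23 overlapped neither. The 17 had a P11 median of 22.2 RPKM, a P16 median of 57.5 RPKM and a median log2 ratio of 0.73, with 8 at least 2-fold higher. The 21 over lncRNA exons had medians of 3.27 and 95.4 RPKM and a median log2 ratio of 5.16, with 20 at least 2-fold higher. The 23 with neither had medians of 0.39 and 16.6 RPKM and a median log2 ratio of 5.46, with 22 at least 2-fold higher. Of all clusters in the list, 20.7% were at least 2-fold higher. Relative to reads outside clusters all members of the 3 classes were at least 2-fold higher, so the contrast in these counts is one of RPKM, while the medians stayed apart at 1.99, 6.41 and 6.69. The clusters over protein-coding exons gave 56.7% of the late short reads at P11 and 18.1% at P16.

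Of the 17 late short clusters over protein-coding exons, 9 had a P11 level within 2-fold of the P16 level by RPKM, and 0 relative to reads outside clusters. By RPKM, 226 of all clusters in the list were within 2-fold, besides the 20.7% at least 2-fold higher and the 35.2% at least 2-fold lower. Such a level is therefore not particular to these clusters, although only 11 of the 61 late short clusters had it. Cluster384 (chromosome 6, 92167770 to 92171440) lies wholly within exons of Nr2c2, an orphan nuclear receptor gene, and Mrps25, a mitochondrial ribosomal protein gene, outside coding sequence. It had 135.7 RPKM at P11, from 1125 reads, and 140 RPKM at P16, from 2083 reads, a ratio of 1.03 (0.961 to 1.11) by RPKM. Relative to reads outside clusters its log2 ratio was 1.30, and the ratios given next for other genes are likewise by RPKM. Cluster356 (chromosome 5, 135160228 to 135163875), within noncoding exon sequence of Tbl2, had 139 RPKM (1144 reads) and 209 RPKM (3082 reads), a ratio of 1.505 (1.41 to 1.61). Both were among the highest late short clusters at P11. Cluster470 (chromosome 8, 111003593 to 111020673) overlaps Ddx19b, which encodes an RNA helicase of mRNA export, and had 53.6 and 59.4 RPKM. Cluster52 (chromosome 10, 71366061 to 71383698) overlaps the inositol phosphate kinase gene Ipmk and had 3.36 and 3.66 RPKM, with an interval of its ratio, 0.880 to 1.35, that includes 1. Between 1.13 and 1.67 times higher at P16 were Tex261 (cluster376, 16.0 to 18.2 RPKM, with an interval of the ratio that includes 1), the zinc finger gene Zfp382 (cluster404, 120 to 188 RPKM), Strbp, which encodes an RNA-binding protein of spermatids (cluster255, 28.5 to 45.3 RPKM), the nuclear envelope gene Nemp1 (cluster76, 38.5 to 61.9 RPKM) and the POU factor gene Pou6f1 (cluster191, 24.8 to 41.3 RPKM). Higher by 2.33 to 4.53 times were Kctd7 (cluster352, 23.1 to 53.7 RPKM), Asb1 (cluster9, 22.2 to 60.8 RPKM), the transketolase-like gene Tktl2 (cluster452, 8.84 to 28.6 RPKM) and the zinc finger gene Maz (cluster435, 10.1 to 45.7 RPKM).

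The other 4 of the 17 had at most 6 reads at P11. Cluster86 over 4933414I15Rik, which RefSeq lists as a lncRNA, went from no read to 57.5 RPKM (607 reads), at least 113-fold higher against a floor of 3 reads in the library, with 91.6 as the lower end of the exact interval. Cluster11 over Gpr35, a G protein-coupled receptor gene, went from 0.17 RPKM (6 reads) to 101 RPKM (6252 reads). Cluster157, of which only 5.13% lies in protein-coding exons (Oit1), went from no read to 5.85 RPKM (237 reads). Cluster227 (688 bp, Cdc42ep3) went from 2.57 RPKM (4 reads) to 72.6 RPKM (202 reads). In long late clusters, the 24 that overlap protein-coding exons had a median log2 ratio of 7.30 and the 16 over lncRNA exons one of 7.45. A long cluster can touch an exon with a small part of its length, and the difference between short and long clusters was not tested.

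**Figure D3:**
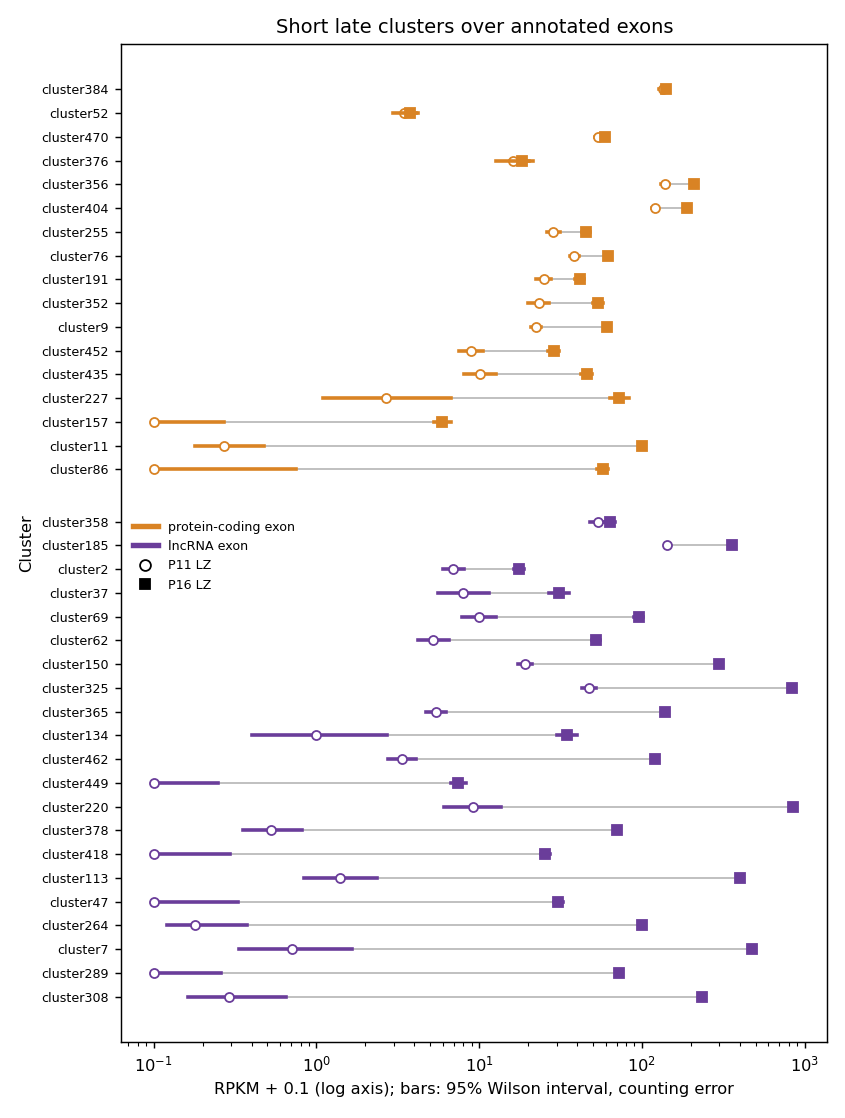
Levels of the 38 late short clusters that overlap annotated exons, in RPKM + 0.1 on a log axis; open circles are P11 LZ, filled squares P16 LZ and thick bars 95% Wilson intervals from the reads, for counting error only. Clusters over protein-coding exons (orange) are ordered by ratio above those over lncRNA exons (purple), and cluster384 at the top stays near 140 RPKM, whereas cluster308 at the bottom goes from 0.19 to 234.0 RPKM.

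The steep clusters over lncRNAs included cluster289 (chromosome 3, 34867867 to 34878576, Gm21388), which had no read at P11 and 72.0 RPKM (3116 reads) at P16, at least 580-fold higher against a floor of 3 reads, with 472 as the lower end of the exact interval. Cluster113 (chromosome 11, 107993695 to 107997826) lies at the kinase gene Prkca, with only 8.16% of its length in exons of the antisense RNA Gm11657, and also holds the miRNA gene Mir7223. As a whole the cluster had 1.29 RPKM (12 reads) and 403 RPKM (6736 reads). Cluster150 (Gm2762) went from 19.1 to 298 RPKM. The smallest ratio of the 21 was that of cluster358 over 4933404O12Rik, with 53.4 RPKM (334 reads) and 63.6 RPKM (713 reads), a ratio of 1.19 (1.05 to 1.36) by RPKM and a log2 ratio of 1.51 relative to reads outside clusters.

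Of the late short clusters with neither kind of exon, cluster460 (chromosome 8, 92189538 to 92201817) had the highest P16 level. GENCODE M21 annotates no gene in it, and it had 2.42 RPKM at P11, from 67 reads, and 693 RPKM at P16, from 34430 reads, a ratio of 287 (226 to 370). It gave 18.4% of all late short reads at P16. Cluster446 (1357 bp, over the processed pseudogene Gm9731) had 0.33 RPKM (1 read) and 262 RPKM (1440 reads). The smallest ratio was that of cluster138, with 9.81 and 16.0 RPKM, and the lowest P16 level that of cluster167, with 2.52 RPKM (97 reads). Reads were few for many members at P11, where 20 of the 61 late short clusters had at most 3 reads, while at P16 each had more than 3. The 5 clusters with the most reads held 68.3% of the late short reads at P11 and 47.1% at P16.

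**Figure D4:**
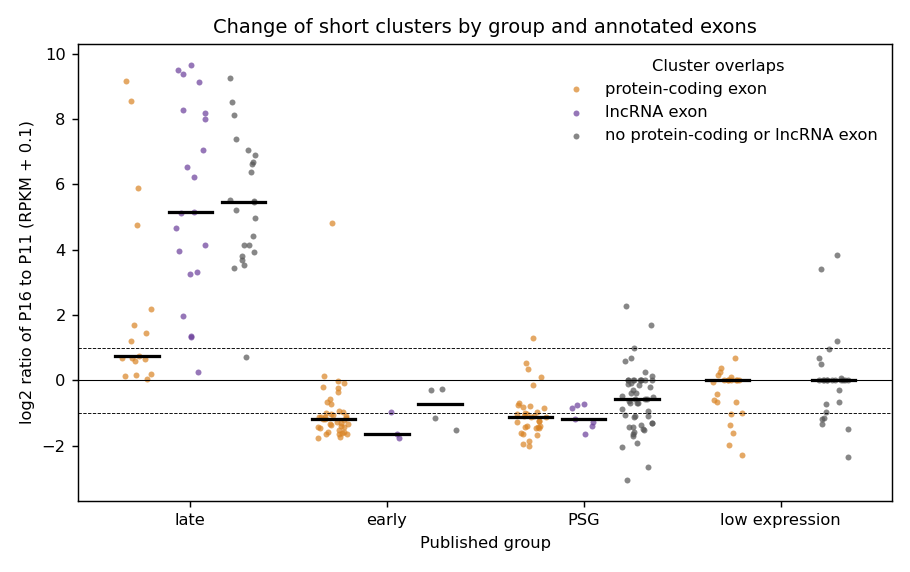
Log2 ratio of P16 to P11 (RPKM + 0.1) of each short cluster by published group and by the exons it overlaps; points are clusters, black bars medians over clusters and dashed lines a 2-fold difference. Late clusters over protein-coding exons centre at 0.73, whereas those over lncRNA exons centre at 5.16 and those over neither at 5.46.

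Early short clusters held most short-cluster reads at P11, and by number they were mainly pieces of mRNA genes. Their P11 median was 61.0 RPKM (quartiles 24.7 and 239) and their P16 median 32.2 RPKM (quartiles 13.1 and 89.7). The median log2 ratio was -1.17 (-1.37 to -1.03), with 32 at least 2-fold lower, against 35.2% of all clusters, and 1 at least 2-fold higher. Relative to the reads outside clusters, the early short median was 0.087, with 5 at least 2-fold higher (28.5% of all clusters) and 0 at least 2-fold lower (4.49% of all clusters). The downward direction of early short clusters therefore depends on the scaling. The second scale only raises ratios, so it could not turn the late short clusters, which were all higher by RPKM. Over all 251 short clusters, the median log2 ratio was -0.30 by RPKM and 0.12 on the second scale. Their calls, 57 higher and 87 lower (39.6% higher), became 86 higher and 17 lower (83.5% higher). Over all clusters in the list the share of higher calls went from 37.1% to 86.4%, and the share called by RPKM was near that of the short ones, with 22.7% of short clusters higher (20.7% of all) and 34.7% lower (35.2% of all).

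The highest early short cluster covered ribosomal RNA sequence. Cluster218 (chromosome 17, 39842998 to 39848201), which holds the rRNA gene CT010467.1 and the lincRNA Gm26917, had 7247 RPKM at P11, from 85170 reads, and 2130 RPKM at P16, from 44814 reads. It gave 35.9% of all short-cluster reads at P11 and 13.7% at P16. Cluster263 (chromosome 2, 122375455 to 122378062), which holds the tRNA genes n-THgtg3, n-THgtg4 and n-THgtg5, had 2055 RPKM (12103 reads) and 926 RPKM (9762 reads). The authors discarded reads that match rRNAs and tRNAs before mapping, and what these reads are was not tested. With the 4 short clusters that hold an rRNA or tRNA gene, short clusters went from 10.5% of mapped reads at P11 to 8.11% at P16. Without them they went from 6.19% to 6.76%, so the direction of the share rests on these clusters.

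Next came clusters within exons of protein-coding genes, mostly outside coding sequence. Cluster237 (chromosome 19, 9982739 to 9984993) lies wholly in exons of Fth1, the ferritin heavy chain gene, with 25.1% of its length in coding sequence, and had 1635 RPKM at P11, from 8328 reads, and 754 RPKM at P16, from 6874 reads. Cluster26 (Abl2, a tyrosine kinase gene) had 725 and 253 RPKM. Cluster111 (Dcaf7) had 632 and 256 RPKM, and cluster295 (Gabpb2, a GA-binding protein subunit gene) had 581 and 187 RPKM. Among 48 early short clusters, 41 overlapped protein-coding exons, with a median of 51.2% of the cluster in such exons and 7.14% in coding sequence. These 41 gave 46.0% of the early short reads at P11 and 50.8% at P16. The 3 over lncRNA exons, with cluster218 among them, gave 46.8% and 39.6%.

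The middle of the 48 early log2 ratios lay between quartiles of -1.47 and -0.90, and the whole range was -1.77 to 4.81. The Spearman correlation of P11 and P16 levels over the 48 was 0.981, given as a description, since clusters share their libraries. The lowest ratios were those of cluster20 over the ETS factor gene Elk4, with 437 RPKM (13896 reads) and 128 RPKM (7300 reads), a ratio of 0.293 (0.285 to 0.302), of cluster218 and of cluster303 over the mitochondrial carrier gene Slc25a51, with 68.5 and 20.5 RPKM. In 6 of the 48 the interval of the ratio included 1, among them cluster55 over Zfp280b, with 94.1 and 92.4 RPKM (0.866 to 1.11), and cluster258 over Arfgap2, with 11.1 and 12.2 RPKM (0.959 to 1.25). That holds by RPKM, and relative to reads outside clusters their log2 ratios were 1.23 and 1.38. Cluster241 (chromosome 19, 31912260 to 31929513) lies within A1cf, an RNA-binding cofactor gene of apolipoprotein B mRNA editing. By RPKM it was the only early short cluster at least 2-fold higher, and relative to reads outside clusters it was 1 of 5. It had 0.03 RPKM (1 read) and 3.54 RPKM (247 reads), a ratio of 118 (24.5 to 5471).

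PSG short clusters were low at both ages. Their P11 median was 0.445 RPKM and their P16 median 0.13 RPKM, and together they gave 0.206% and 0.109% of mapped reads. The median log2 ratio was -0.90 (-1.10 to -0.70), with 3 at least 2-fold higher (20.7% of all clusters) and 44 at least 2-fold lower (35.2% of all clusters). Relative to reads outside clusters it was -0.032, with 11 higher (28.5% of all clusters) and 12 lower (4.49% of all clusters). In 31 of the 92, both libraries had at most 3 reads, and no difference was detectable at this depth even where the values pass 2-fold. Such clusters make up 1 of the 3 higher and 5 of the 44 lower by RPKM, and 3 of the 11 higher and 5 of the 12 lower on the second scale. The highest was cluster291 (chromosome 3, 58415528 to 58417310), 91.0% of it coding sequence of Tsc22d2, with 29.6 RPKM at P11, from 119 reads, and 16.7 RPKM at P16, from 120 reads, a log2 ratio of -0.82 that became 0.42 relative to reads outside clusters. Cluster501 (Dcaf1, Manf and Rbm15b among its genes) had 17.1 and 7.15 RPKM, and cluster78 over Atp5b, which encodes a subunit of ATP synthase, had 15.2 and 4.76 RPKM. Where the mean reached 1 RPKM, the lowest ratios were those of cluster257 over the kinase gene Pdk1 (3.63 and 0.86 RPKM), cluster412 over Gys1 and the ferritin light chain gene Ftl1 (13.8 and 3.75 RPKM) and cluster457 over the calcium channel gene Cacna1a (2.97 and 0.87 RPKM). Against them stood cluster211 (chromosome 17, 27553125 to 27562912) over Hmga1, an architectural chromatin protein gene, with 6.61 RPKM (146 reads) and 16.4 RPKM (650 reads), a ratio of 2.49 (2.075 to 2.997). Cluster336, with no annotated gene, had 1.43 and 2.95 RPKM. Cluster186 over the kinase gene Pim3 had 2.14 and 2.74 RPKM, and by RPKM the interval of its ratio, 0.864 to 1.92, includes 1. Cluster110 (Kcnh6 and Dcaf7) had 10.2 and 11.0 RPKM. Relative to reads outside clusters, the log2 ratios of cluster336, cluster186 and cluster110 were 2.22, 1.57 and 1.35. Those of cluster257, cluster412 and cluster457 were -0.79, -0.62 and -0.50.

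Short clusters of the low expression group had a P11 median of 0.06 RPKM and a P16 median of 0.04 RPKM, and 30 of the 50 had at most 3 reads in both libraries. Cluster498 (chromosome 9, 98274346 to 98286589), with no annotated gene, was the exception in level, with 0.61 RPKM at P11, from 17 reads, and 9.92 RPKM at P16, from 491 reads, a ratio of 16.3 (9.97 to 27.9). It gave 58.9% of the group's reads at P16. Cluster505, also without a gene, had 0.03 RPKM (1 read) and 1.29 RPKM (75 reads). In the other direction, cluster357 over Fkbp6, a gene needed for piRNA production, and Trim50 had 2.71 RPKM (90 reads) and 0.82 RPKM (49 reads), and cluster353 over Tyw1 had 0.96 RPKM (22 reads) and 0.17 RPKM (7 reads). Cluster487 over Vps11 had 1.41 and 1.37 RPKM. Relative to reads outside clusters, the log2 ratios of cluster357, cluster353 and cluster487 were -0.45, -1.07 and 1.16. By RPKM 3 of the 50 were at least 2-fold higher and 11 lower, and relative to reads outside clusters 9 higher and 5 lower, against 20.7%, 35.2%, 28.5% and 4.49% of all clusters. Clusters with at most 3 reads in both libraries, where no difference was detectable, make up 0 of these 3 and 3 of these 11, and 3 of the 9 and 1 of the 5. The shortest cluster of all, cluster15 (123 bp, within Clasp1), had no read in either library, as had cluster133 (748 bp, Slc17a3), and in cluster15 a single read would amount to 3.6 RPKM at P11.

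Some short clusters directly adjoined another cluster, and neighbours could differ widely. Cluster242 (late) and cluster243 (low expression) on chromosome 19 are 264 bp apart. Cluster242 had 0.17 RPKM at P11, from 3 reads, and 22.5 RPKM at P16, from 700 reads, whereas cluster243 over Ide, the insulin-degrading enzyme gene, had 0.63 RPKM (13 reads) and 0.38 RPKM (14 reads), a log2 ratio of -0.60 that became 0.46 relative to reads outside clusters. On chromosome 18, cluster232 (low expression) lies 126 bp from the long late cluster231, which had 238 RPKM at P16, and had itself no read at P11 and 0.13 RPKM (9 reads) at P16. Cluster418 (late) lies 273 bp from the long late cluster419 and had no read at P11 and 25.5 RPKM (894 reads) at P16. Cluster49 and its long neighbour cluster48, 155 bp apart, both stayed at or below 0.17 RPKM.

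Length itself ordered the changes little within the short clusters. The Spearman correlation of length with the log2 ratio was -0.07 over all 251 and 0.06 over the 61 late ones. Its correlation with the level differed by group, with -0.40 at P11 and -0.42 at P16 in early clusters, 0.19 and 0.23 in PSG clusters, 0.40 and 0.53 in low expression clusters and -0.20 and -0.22 in late ones. The points share their libraries, and reads are few in the PSG and low expression groups. Just inside the length limit lay cluster52 (17638 bp), cluster275 (17659 bp, Phf20, 54.5 and 19.1 RPKM) and cluster232 (17793 bp). Just outside it lay cluster359 (17968 bp, 1.33 and 0.45 RPKM), cluster292 (17968 bp, 0.81 and 0.33 RPKM) and cluster482 (18010 bp, 0.54 and 4.68 RPKM).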

How the data were processed

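Small RNAs of LZ spermatocytes were analysed in 1 library per age. Per the study's methods, the authors discarded reads matching miRNAs, rRNAs, tRNAs, snoRNAs, snRNAs and scRNAs, mapped the rest to mm10 with Bowtie2 without mismatches, counted unique reads in clusters merged within 100 bp and deposited RPKM with 2 decimals. The submitters' processing notes name Trim Galore and HISAT2 instead, and versions are not given in the sources used here. The values are relative to the library, so a rise of some lowers the RPKM of others.

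Mapped reads were recovered as the depth at which most RPKM values of clusters with rounding under 0.3 reads and under 5000 reads become whole within their own rounding. All 193 such short values at P11 and 165 at P16 did (100%), which the search itself aims at, and its criterion was revised after earlier versions left values that were not whole. A depth found in earlier work on these files was known. The range of equally good depths was 2258279 to 2258283 at P11 and 4043058 to 4043069 at P16. The libraries are described with no molecular identifiers.

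Ratios used a pseudocount of 0.1 RPKM and a fold of 2. Shares have 95% Wilson intervals, ratios exact binomial intervals, and 3 reads served as the floor. For each group the named clusters were the 3 highest at each age and, where the mean reached 1 RPKM and the reads 10 in all, the 3 largest and 3 smallest ratios. To these were added the 3 shortest and longest, the 3 closest pairs, those with rRNA or tRNA genes and the 3 just over the limit. Only 3 low expression clusters were eligible for the ratios. Further clusters were named after their values were seen. Members, lists and this rule were chosen with earlier results of these data known. Genes came from GENCODE M21 and promoters from RefSeq (GRCm38.p6). Lists of exon classes, starts at edges, snoRNA and miRNA genes and neighbouring late clusters were added after the values were seen. Alternatives covered the pseudocount (1 and 0.01), low clusters, the scaling, a limit of 10000 bp and rRNA or tRNA genes. Python 3.11.15, numpy 2.4.6, pandas 2.3.3, scipy 1.17.1, matplotlib 3.10.9 and bedtools 2.31.1 were used, and the procedure was tested on simulated data.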

Additional observations from a re-analysis of the deposited data

How the results depend on the processing

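No paired analysis was possible because the ages share no replicate number beyond a single library each, and for the same reason no library could be left out. Relative to mapped reads outside the clusters, the median log2 ratio was 0.12 over all short clusters (-0.30 by RPKM) and 0.087 for early ones, both with their direction turned, 5.92 for late and -0.032 for PSG ones, and 86 short clusters were at least 2-fold higher and 17 lower. Of the 44 short clusters that the rule names, 8 turned on that scale, cluster237 (0.14), cluster263 (0.10) and cluster477 (0.12), which had been at least 2-fold lower, and cluster291 (0.42), cluster243 (0.46), cluster487 (1.16), cluster55 (1.23) and cluster350 (0.57), which had not. Rescaled to the median ratio, late, early and PSG medians were 5.74, -0.095 and -0.18, and 80 short clusters were at least 2-fold higher and 19 lower, where 26.8% of all clusters were higher and 5.08% lower. With a pseudocount of 1 the late median was 3.29, the PSG median -0.23 and 43 were lower, and with 0.01 the PSG median was -1.26. At a mean of at least 1 RPKM, 50 of 138 were lower and the PSG median was -1.12. At 10000 bp or less, 32 of 147 short clusters were higher and 52 lower. In the main setting these were 57 and 87 of 251, with 20.7% of all clusters higher and 35.2% lower. The 147 clusters held 7.64% of mapped reads at P11 and 4.41% at P16. Without rRNA or tRNA genes the shares were 6.19% and 6.76%. Over the 2 pseudocounts and 2 scalings and the 42 short clusters of the rule that had reads, 95 values stayed within the main ratio's counting interval, 70 did not, and 3 that had been at least 2-fold lower changed sign. The cause was not tested, except that fewer clusters enter the shorter limit. Without clusters of at most 3 reads in both libraries, an alternative added after seeing the data, 56 of 190 short clusters were higher and 79 lower. These were 29.5% and 41.6% of the 190, near the 24.4% and 39.9% of the 431 such clusters in the whole list. Few reads limit the ratios of clusters with under 10 reads at P11.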

Other observations

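Short clusters that hold annotated snoRNA genes, which lie in introns of highly transcribed host genes, were all lower at P16 on the RPKM scale. There were 8 such clusters, 5 early and 3 PSG, with a median log2 ratio of -1.41 and a range of -1.65 to -1.08. All 8 were at least 2-fold lower, against 35.2% of all clusters, 66.7% of early short ones and 47.8% of PSG short ones. Relative to reads outside clusters their median was -0.18, and 0 were at least 2-fold lower (4.49% of all clusters) and 0 higher (28.5%), with cluster342 at 0.17 and cluster91 at 0.04. They include the ribosomal protein genes Rpl4 (cluster495, 112 to 44.2 RPKM), Rpl5 (cluster342, 54.8 to 25.8 RPKM) and Rps3 (cluster428, 41.9 to 13.3 RPKM), Rack1, whose protein sits on the ribosome (cluster84, 12.4 to 4.56 RPKM), and the translation factor gene Eif4a1 (cluster91, 147 to 63.3 RPKM). Cluster216, over Hspa1b and the processed transcript 1110038B12Rik, gave 51.3% of the reads of the 8 at P11, with 371 and 120 RPKM. Cluster78 over Atp5b is a further member, and no shared function of the hosts was tested. Of the 15 short clusters that hold a miRNA gene, 12 were lower at P16, against 62.9% of all clusters, and 3, all of the late group, were higher. The 12 comprised 5 early and 7 PSG clusters, groups in which 95.8% and 78.3% of short clusters were lower. Relative to reads outside clusters the median log2 ratio of the 15 was 0.08, with 3 at least 2-fold higher (28.5% of all clusters) and 1 lower (4.49%). Reads matching snoRNAs and miRNAs had been discarded before mapping.

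Some late short clusters lay close together on a chromosome. On chromosome 13, 5 of them (cluster138, cluster140, cluster142, cluster143 and cluster145) lay within 1024 kb, from 49889127 to 50913196, with 188 reads at P11 and 3592 reads at P16, and 8.25 to 69.1 RPKM at P16. On chromosome 2, 3 of them (cluster267, cluster269 and cluster270) lay within 275 kb, from 151141496 to 151416848, and together went from 11 to 2577 reads, with 9.95 to 19.1 RPKM each at P16. Apart from a pseudogene in cluster138 and one in cluster143, and the lincRNA Gm14152 in cluster270, no gene is annotated in them.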
